A study of Homo sapiens with 72 samples.

Results

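The genes described here code for the respiratory chain, the set of protein complexes in the inner mitochondrial membrane that carry electrons to oxygen and make ATP. They were chosen by gene name alone: 13 genes of the mitochondrial genome whose names start with MT-ND, MT-CO, MT-ATP or MT-CYB, and 100 nuclear genes whose names start with NDUF, UQCR, ATP5, SDHA to SDHD or COX4 to COX8. These 113 genes are among 19324 in the count table. Complexes I to IV pass electrons from NADH and succinate to oxygen, all but complex II pump protons as they do so, and complex V, the ATP synthase, uses the proton gradient. The mitochondrial members are copied from mitochondrial DNA by the polymerase POLRMT as long transcripts that are then cut into separate mRNAs, while the nuclear members are transcribed gene by gene by RNA polymerase II. Complexes I, III, IV and V hold subunits from both genomes, and complex II is wholly nuclear. By complex, the mitochondrial members were 7 genes of complex I, 1 of complex III, 3 of complex IV and 2 of complex V. The nuclear members were 37 subunits and 8 assembly factors of complex I, 4 subunits and 4 assembly factors of complex II, 9 subunits of complex III, 17 of complex IV with NDUFA4 and NDUFA4L2 counted there, 18 of complex V, its inhibitor ATP5IF1 and 2 read-through transcripts that join a member to a neighbouring gene.

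Polyadenylated RNA was sequenced from 72 libraries of HEK293 Flp-In T-REx cells, a line of human embryonic kidney origin, in 24 groups of 3 replicates. The 4 lines were CSB_KO, STK19_KO1, STK19_KO2 and WT. CSB_KO lacks CSB, the product of ERCC6 that couples nucleotide excision repair to stalled RNA polymerase II, and STK19_KO1 and STK19_KO2 are 2 clones lacking STK19, a factor of the same repair route. Each line was taken untreated (0 h), at 3 h after UV with no addition, and at 4 h and 20 h with either ATRi, the ATR kinase inhibitor VE-821 at 3 µM in DMSO, or DMSO alone. CSB_KO is represented by 1 line, so a clone's own features and the loss of CSB cannot be told apart. The labels used here state no UV dose, and they do not settle whether the 4 h and 20 h times count from UV or from the addition of the inhibitor. No unirradiated library was taken at the later times among those analysed here, so UV and time in culture cannot be told apart. Nothing in the labels says that the replicates came from separate cultures, so p-values measure the spread between these samples, which may be technical.

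Library totals ran from 36.5 to 212.9 M counts, with a median of 56.3 M (M is 10 to the power 6). ERCC6 averaged 6.97 ± 0.611 CPM (counts per 10 to the power 6 of the library) in CSB_KO and 23.5 ± 0.473 CPM in WT at 0 h (SD, n = 3 each). STK19 averaged 17.5 CPM in STK19_KO1 and 17.1 CPM in STK19_KO2, against 19.0 CPM in WT, and did not pass the test (edgeR, adjusted p = 0.187 and 0.0882), so its level does not check those labels. In 5 libraries the counts lay farther from both other replicates than a chi-square of 20 per gene: in WT, replicate 1 at 0 h, 3 h and 4 h in DMSO, and in STK19_KO1, replicate 3 at 3 h and replicate 1 with ATRi at 4 h. Counts of members are therefore given with and without these 5 libraries where they differ. Of markers for other cells, the 3 squamous markers stayed under 1 CPM in every library, 4 of 5 blood markers did (HBA1 did not), 3 of 5 fibroblast markers did (COL1A1 and COL3A1 did not), and none of 3 kidney tubule markers did. In bulk RNA, fewer cells of a kind and less RNA per cell cannot be told apart. All levels and changes are relative to the other poly(A) RNA of a library, so a rise is not read as more mRNA per cell.

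The mitochondrial genes differ from the nuclear ones in how they are laid out, and their values are given along that layout. In the order of the heavy-strand transcript they run MT-ND1, MT-ND2, MT-CO1, MT-CO2, MT-ATP8, MT-ATP6, MT-CO3, MT-ND3, MT-ND4L, MT-ND4, MT-ND5 and MT-CYB. MT-ND1 (MT:3307-4262, GRCh38) is the first of these and MT-CYB (MT:14747-15887) the last, starting 11.44 kb further on. MT-ND6 is read from the opposite strand, and its mRNA is known to carry little or no poly(A) tail, so a poly(A) library records it poorly. Several of the mRNAs end inside their stop codon, which the poly(A) tail completes. The last 15 bases of the annotated transcript show this for the 2 genes at the ends of the order, and MT-CO1, which ends in a whole codon, is shown beside them. Capitals mark the bases past the last whole codon, or the terminal codon where it is whole.
MT-ND1: tccccctcaaaccTA
MT-CO1: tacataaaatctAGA
MT-CYB: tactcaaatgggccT
MT-ATP8 and MT-ATP6 share 1 mRNA and overlap by 46 bases (MT:8527-8572, plus strand of GRCh38), so reads in this stretch could be counted for either gene and the values of the pair are not independent.
MT-ATP8 and MT-ATP6: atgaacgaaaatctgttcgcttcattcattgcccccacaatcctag

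For the nuclear members, 300 bases around the start (250 before and 50 after, RefSeq, GRCh38.p14) were found for 81 of 100 genes. The 4 printed below are examples picked by hand. UQCRFS1, COX6A1 and ATP5ME were higher at 3 h in CSB_KO, as most nuclear members were, and NDUFV2 was lower at 20 h. Capitals mark matches to NRF1 (GCGC, any base, then TGCGC), ETS (CCGGAAG), YY1 (AANATGGCG) and CCAAT on either strand. UQCRFS1 lies at chr19:29213102-29213401 on the minus strand, COX6A1 at chr12:120437863-120438162 on the plus strand, ATP5ME at chr4:674227-674526 on the minus strand and NDUFV2 at chr18:9102449-9102748 on the plus strand.
UQCRFS1: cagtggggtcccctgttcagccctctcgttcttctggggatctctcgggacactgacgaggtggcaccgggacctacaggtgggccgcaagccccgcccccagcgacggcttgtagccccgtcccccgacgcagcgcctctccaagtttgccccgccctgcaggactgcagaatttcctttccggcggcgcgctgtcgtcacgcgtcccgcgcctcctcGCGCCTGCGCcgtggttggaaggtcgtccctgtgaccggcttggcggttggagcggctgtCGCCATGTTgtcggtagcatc
COX6A1: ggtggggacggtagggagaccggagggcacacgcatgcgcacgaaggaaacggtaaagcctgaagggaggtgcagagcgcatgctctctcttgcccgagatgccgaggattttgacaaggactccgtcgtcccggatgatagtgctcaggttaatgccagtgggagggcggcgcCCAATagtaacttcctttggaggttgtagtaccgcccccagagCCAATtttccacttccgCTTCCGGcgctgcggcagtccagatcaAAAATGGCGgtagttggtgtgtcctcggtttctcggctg
ATP5ME: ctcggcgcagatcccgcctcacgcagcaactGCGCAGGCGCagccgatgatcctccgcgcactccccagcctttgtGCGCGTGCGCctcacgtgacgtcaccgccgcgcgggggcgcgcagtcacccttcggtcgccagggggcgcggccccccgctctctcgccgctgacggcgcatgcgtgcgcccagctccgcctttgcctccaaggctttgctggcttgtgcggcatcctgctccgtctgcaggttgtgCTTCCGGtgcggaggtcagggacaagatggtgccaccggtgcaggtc
NDUFV2: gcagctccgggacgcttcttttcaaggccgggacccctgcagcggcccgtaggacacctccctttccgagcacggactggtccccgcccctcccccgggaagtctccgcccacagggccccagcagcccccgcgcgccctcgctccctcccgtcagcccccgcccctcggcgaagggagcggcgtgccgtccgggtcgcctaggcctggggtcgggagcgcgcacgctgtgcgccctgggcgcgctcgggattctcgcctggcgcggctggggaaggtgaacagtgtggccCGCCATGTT
The NRF1 letters were in 24.7% of member promoters and 11.9% of the 12133 promoters of tested genes, the ETS letters in 30.9% and 20.2%, and the YY1 letters in 23.5% and 7.08%. CCAAT was in 35.8% of member promoters and 43.1% of all, and the TATA box letters TATAAA in 8.64% and 9.54%. At least 1 of NRF1, ETS and YY1 was in 49 member promoters (60.5%), against 33.7% of all. ETS and YY1 letters overlapped at 4 starts in the whole table and at 0 of the members' starts. A match describes the letters of this window and not a bound site.

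Levels per kb of summed exon length were far higher for the mitochondrial genes than for most nuclear members. This length is that of all annotated exons of a gene and not of its mRNA. Among nuclear members it ran as high as 9715 bases for UQCRB, against 548 bases for NDUFS5. A long exon sum lowers the level per kb. The nuclear median and the ranking within each complex below therefore depend in part on the annotation. In WT at 0 h, MT-CO1, the catalytic subunit of complex IV, stood at 6236 ± 367 CPM per kb (SD, n = 3) and MT-ND6 at 265.5 ± 60.8 CPM per kb, the highest and lowest of the 13. The median of the 100 nuclear members was 26.9 CPM per kb. The nuclear member with the highest level in each complex over all libraries was NDUFS5 for complex I (241.6 ± 12 CPM per kb in WT at 0 h), SDHB for complex II (44.5), UQCRH for complex III (192.6), COX6B1 for complex IV (166.0) and ATP5F1B for complex V (457 ± 11.5). ATP5F1B codes for the catalytic beta subunit of ATP synthase.

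Together the 13 mitochondrial genes took 1.84% to 5.50% of the counts of a library and the 100 nuclear genes 0.965% to 1.51%. In CSB_KO the mitochondrial share lay below its 0 h level at 4 h in DMSO and above it at 20 h, and in WT it lay above at 4 h and below at 20 h. In CSB_KO it was 3.34 ± 0.0766% at 0 h, 3.01 ± 0.346% at 3 h, 2.4 ± 0.222% at 4 h in DMSO and 3.93 ± 0.449% at 20 h in DMSO (SD, n = 3 each). In WT it was 3.30 ± 0.183% at 0 h, 4.27 ± 0.072% at 3 h, 4.71 ± 0.109% at 4 h in DMSO and 2.35 ± 0.368% at 20 h in DMSO. At 20 h in DMSO the share was 2.81% in STK19_KO1, against 2.89% at 0 h, and 3.17% in STK19_KO2, against 2.88% at 0 h. The nuclear share was 1.49 ± 0.0138% in CSB_KO at 20 h in DMSO, against 1.01 ± 0.0118% at 0 h, and 1.07% in WT at 20 h in DMSO, against 1.05% at 0 h. These shares are descriptions and carry no test.

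**Figure D1:**
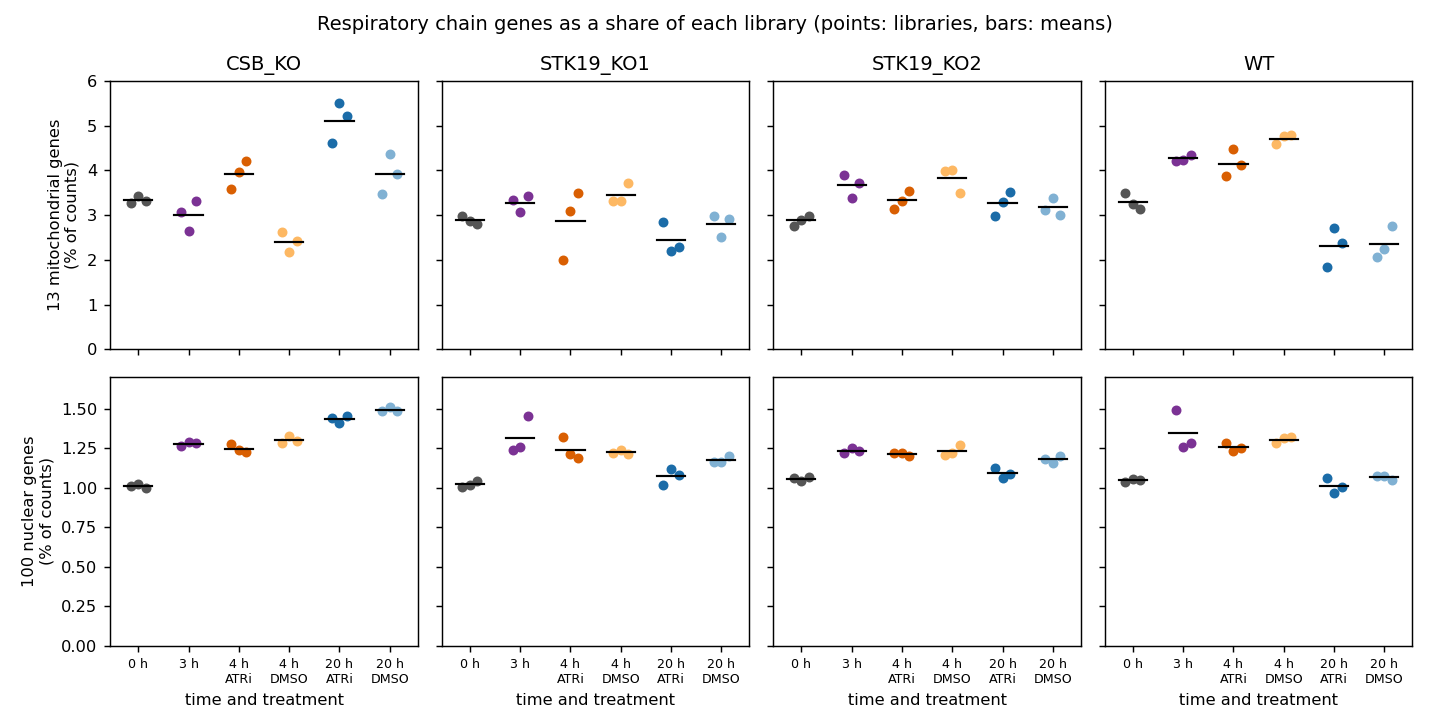
Share of all counts taken by the 13 mitochondrial genes (upper row, %) and the 100 nuclear genes (lower row, %) in each of the 72 libraries, by line and condition, with points for libraries and bars for group means. In CSB_KO the mitochondrial share was lowest at 4 h in DMSO (mean 2.4%) and highest at 20 h with ATRi (mean 5.11%), while in WT it was highest at 4 h in DMSO (mean 4.71%).

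At 3 h after UV, 10 of 13 mitochondrial mRNAs were called higher than at 0 h in WT, and fewer were called in the knockouts. Of the 13 genes, 0 rose and 2 fell in CSB_KO, 4 rose in STK19_KO1, 4 rose in STK19_KO2 and 10 rose in WT, with 0 falling in the last 3 lines (edgeR quasi-likelihood test, Benjamini-Hochberg adjusted p under 0.05 over 15470 genes). Over all genes tested, 32.0% were called higher and 29.3% lower in CSB_KO, 29.9% and 30.6% in STK19_KO1, 29.1% and 28.5% in STK19_KO2, and 33.6% and 28.8% in WT. The 4 of 13 rising in each STK19 line were near these shares, and the 2 of 13 falling in CSB_KO were below them. Without the 5 libraries the rose and fell counts were 1 and 4 in CSB_KO and 2 and 0 in STK19_KO1, and did not change in STK19_KO2 and WT. Leaving out every replicate 2 took the CSB_KO count to 0, leaving out every replicate 2 or 3 took the STK19_KO1 count to 2, and leaving out every replicate 1 took the CSB_KO count to 5 lower. Scaled by the upper quartile, 2 rose and 1 fell in CSB_KO.

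MT-ND1, the complex I subunit at the head of the transcript, had 3711, 4156 and 4319 CPM in WT at 3 h, against 2137, 2146 and 2048 CPM at 0 h. These did not overlap, and the log2 change was 0.94 ± 0.15 (SE, edgeR adjusted p = 2.41e-07). In the STK19 lines MT-ND1 rose by a log2 change of 0.69 in STK19_KO1 and 0.74 in STK19_KO2, while in CSB_KO the change was 0.27 (adjusted p = 0.112). MT-CYB, the cytochrome b subunit of complex III at the other end, had 1550, 1302 and 1639 CPM in CSB_KO at 3 h, against 2147, 2222 and 2090 CPM at 0 h, a log2 change of -0.52 ± 0.16 (adjusted p = 0.00354). In WT it had 1974, 2149 and 2212 CPM at 3 h, against 2171, 2042 and 1993 CPM at 0 h, which overlap. Between these ends in WT, the complex IV subunits MT-CO1 and MT-CO2 changed by 0.73 and 0.67 and MT-ND4 by 0.40, all called, and MT-ND5 by 0.18, not called.

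At 4 h in DMSO more mitochondrial genes were called lower in CSB_KO than at 3 h, and most were called higher in WT. In CSB_KO 0 mitochondrial genes rose and 8 fell, against 4 rising in STK19_KO1, 6 rising in STK19_KO2 and 11 rising in WT, with 0 falling in these 3 lines. The background was 33.6% called higher and 30.2% lower in CSB_KO, 27.9% and 30.0% in STK19_KO1, 31.6% and 29.8% in STK19_KO2, and 35.0% and 31.3% in WT. The 4 of 13 rising in STK19_KO1 were near its share of all genes. MT-ND5, a membrane subunit of complex I, had 1522, 1202 and 1346 CPM in CSB_KO at 4 h in DMSO, against 2358, 2440 and 2409 CPM at 0 h, and a log2 change of -0.82. In WT it had 2672, 2868 and 2766 CPM, against 2224, 1947 and 1920 CPM at 0 h. Both pairs of groups were separate, in opposite directions. Leaving out every replicate 2 or every replicate 3 took the CSB_KO count of falling genes to 5 or 6, the WT count of rising genes to 7 or 6 and the STK19_KO1 count to 2, and leaving out every replicate 2 took the STK19_KO2 count to 4.

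Whether the early response differed from that of WT was tested with the difference of the changes. At 3 h the log2 change was lower in CSB_KO than in WT for 6 mitochondrial genes and higher for 0, against 8.30% of all genes lower and 1.48% higher. All 6 rose in WT, and none of the 6 was called in CSB_KO, where their changes ran from -0.29 for MT-ATP6 to 0.27 for MT-ND1. The called genes were MT-ND1 at -0.67, MT-CO1 at -0.59, MT-ATP8 at -0.74, MT-ATP6 at -0.72, MT-ND4L at -0.64 and MT-ND4 at -0.66 on the log2 scale. Without the 5 libraries 8 were called, although MT-ATP8 was then at -0.50 (adjusted p = 0.13), and without every replicate 2 the count was 0 and without every replicate 3 it was 2. At 4 h in DMSO, a comparison added after the data were seen, the change was lower in CSB_KO than in WT for all 13, by -0.65 for MT-CO3 to -1.27 for MT-ND5, against 11.3% of all genes lower. That count was 6 without every replicate 2 and 9 without every replicate 3. For the mean of the STK19 lines, MT-ND4L was the 1 gene called at 3 h, at -0.33, beside 17.1% of all genes lower, and it had an adjusted p of 0.0678 without the 5 libraries. At 4 h, MT-CO1 and MT-ND4L were called for the STK19 lines at -0.38 and -0.43, beside 14.7% of all genes lower. With those 5 libraries left out 7 were called there.

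**Figure D2:**
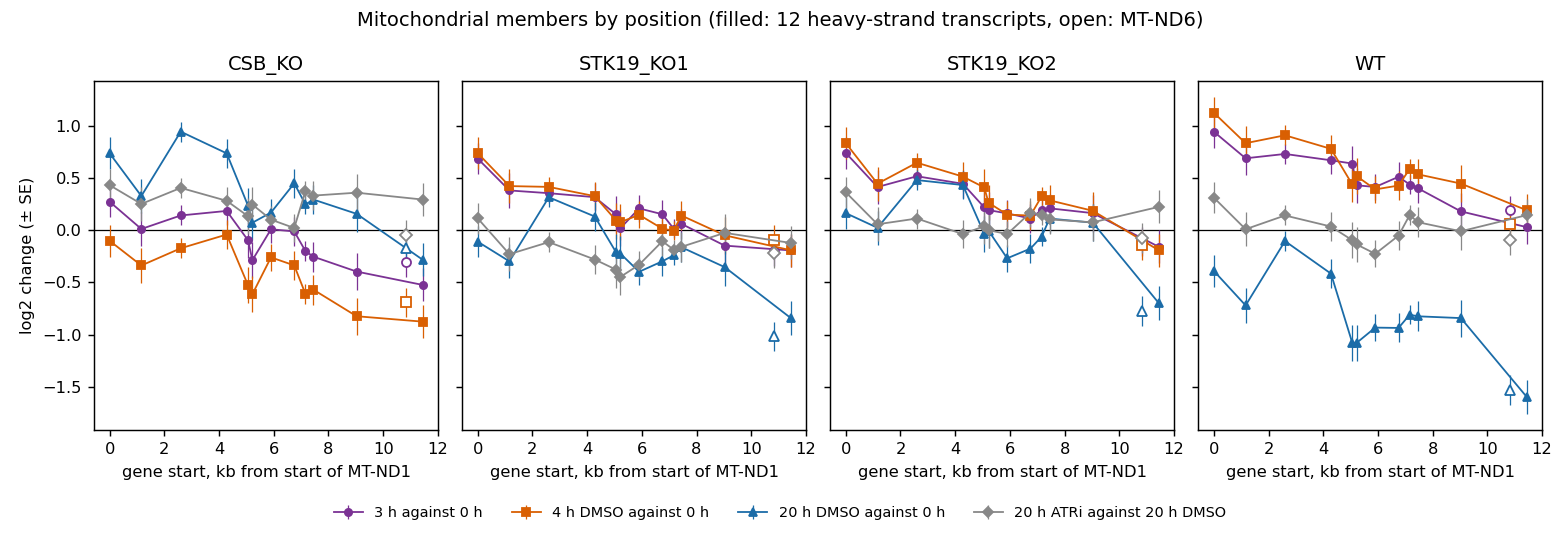
Log2 change of each mitochondrial gene (edgeR estimate, bars for the standard error) against the distance of its start from the start of MT-ND1 in kb, in 1 panel per line, for 3 h against 0 h, 4 h DMSO against 0 h, 20 h DMSO against 0 h and 20 h ATRi against 20 h DMSO. Filled points joined by lines are the 12 heavy-strand mRNAs, open points MT-ND6. The 3 UV changes tend to fall with distance in every line, though not steadily at 20 h. CSB_KO has the lowest values at 4 h and the highest at 20 h.

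Along the transcript the change tended to fall with distance in every line. Over the 12 heavy-strand genes the Pearson correlation of the log2 change with distance lay between -0.949 and -0.858 at 3 h, between -0.937 and -0.799 at 4 h in DMSO and between -0.734 and -0.635 at 20 h in DMSO. Spearman's rho lay between -0.937 and -0.818 at 3 h, -0.895 and -0.72 at 4 h and -0.685 and -0.545 at 20 h. At 20 h the fall was not steady, with MT-CO1, the third gene, above MT-ND1 in every line. These correlations are descriptions over genes of 1 transcript in the same libraries. All 3 times share the 0 h libraries of their line. For ATRi against DMSO the Pearson correlation lay between -0.265 and 0 at 4 h and between -0.203 and -0.063 at 20 h.

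The ratio of MT-ND1 to MT-CYB counts within a library does not depend on scaling between libraries. Its log2 value lay between 0.52 and 1.5 in the 60 irradiated libraries and between -0.278 and 0.0715 in the 12 libraries at 0 h, with no overlap. The 2 ranges were the same without the 5 libraries. At 3 h the log2 ratio was higher than at 0 h by 0.87 on average, with 0.79 in CSB_KO, 0.88 in STK19_KO1, 0.90 in STK19_KO2 and 0.91 in WT. At 4 h in DMSO it was higher by 0.92 and at 20 h in DMSO by 0.95, with 1.02 in CSB_KO, 0.73 in STK19_KO1, 0.86 in STK19_KO2 and 1.2 in WT. Each of these differences had p = 1.25e-05, the smallest that the two-sided exact permutation within lines allows with 12 against 12 libraries, and 1.56e-05 adjusted over the 5 comparisons made. The pair of genes was chosen after the order along the transcript was seen. MT-CO1 also took a larger share of the mitochondrial counts, 33.7% to 42.5% at 3 h and 41.4% to 45.6% at 20 h in DMSO, beside 30.7% to 38.1% at 0 h.

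**Figure D3:**
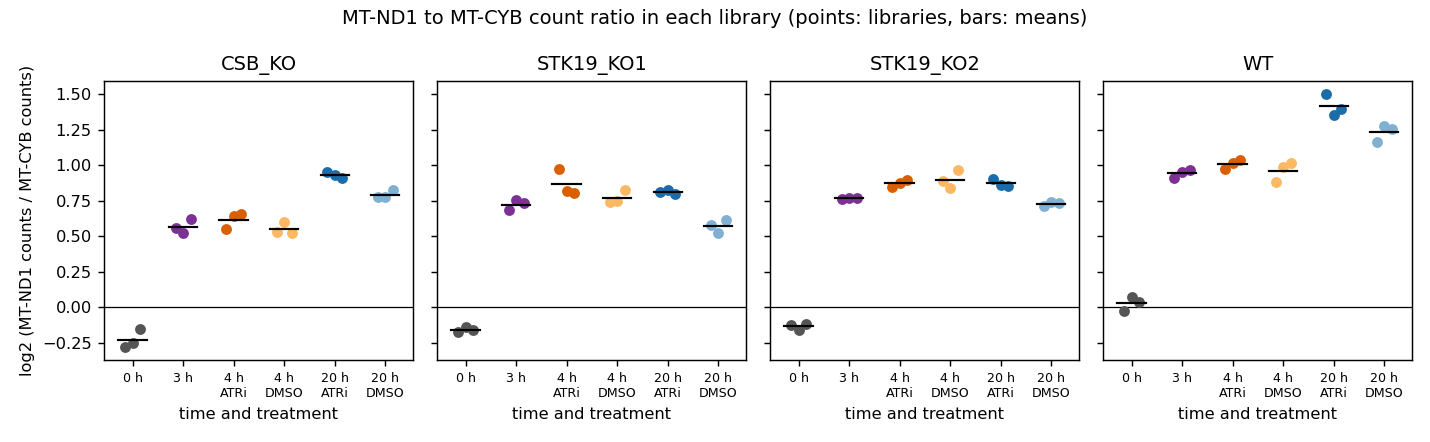
Log2 ratio of MT-ND1 to MT-CYB counts in each library, by line and condition, with points for libraries and bars for means. The 60 irradiated libraries lie at 0.52 or above and the 12 libraries at 0 h at 0.0715 or below, and in each line the 20 h ATRi mean is above the 20 h DMSO mean.

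By 20 h in DMSO the lines had parted: 12 of 13 mitochondrial mRNAs were called lower than at 0 h in WT, and 0 in CSB_KO. In CSB_KO 5 rose and 0 fell, in STK19_KO1 1 rose and 4 fell, in STK19_KO2 2 rose and 2 fell, and in WT 0 rose and 12 fell. Over all genes 38.3% were called higher and 40.5% lower in CSB_KO, 32.1% and 37.0% in STK19_KO1, 33.8% and 37.8% in STK19_KO2, and 30.0% and 25.4% in WT. The 5 of 13 rising in CSB_KO were near its share of all genes, and nothing particular to the members is read from that count. MT-CO1 was the member not called in WT. Scaled by library totals alone, 3 rose and 2 fell in CSB_KO. Without the 5 libraries 7 rose and 1 fell in CSB_KO, 1 rose and 6 fell in STK19_KO1, and 2 rose and 3 fell in STK19_KO2. Leaving out every replicate 1 gave 8 rising in CSB_KO, every replicate 2 gave 3, and leaving out every replicate 2 or 3 gave 2 falling in STK19_KO1.

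MT-CYB had 591, 646 and 811 CPM in WT at 20 h in DMSO, against 2171, 2042 and 1993 CPM at 0 h, a log2 change of -1.60 ± 0.16 (edgeR adjusted p = 1.17e-12). MT-ND6, from the opposite strand, had 46.8, 41.7 and 55.6 CPM, against 176, 123 and 119 CPM at 0 h, and fell by 1.53 on the log2 scale. MT-ND1 had 1325, 1567 and 1937 CPM in WT, against 2137, 2146 and 2048 CPM, and fell by 0.39 (adjusted p = 0.0245). All 3 pairs of groups were separate. MT-CO1, the third gene of the order, had the smallest change, -0.10 (adjusted p = 0.37), and MT-ND2, beside MT-ND1, fell by 0.72. MT-CO1 in CSB_KO had 16730, 21150 and 19030 CPM at 20 h in DMSO, against 9667, 10140 and 9737 CPM at 0 h, a log2 change of 0.95 (adjusted p = 3.16e-13). In CSB_KO MT-ND1 rose by 0.74 and MT-CYB, at -0.28, did not pass (adjusted p = 0.0992).

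The 20 h change differed from that of WT for all 13 genes in CSB_KO and for all 13 in the mean of the STK19 lines. In CSB_KO the difference ran from 1.00 for MT-ND5 to 1.39 for MT-ND3 on the log2 scale, with a median of 1.13. In the STK19 lines it ran from 0.42 for MT-ND1 to 0.96 for MT-ATP8 and MT-ATP6, with a median of 0.70. Over all genes 30.9% were called higher in the CSB_KO difference and 22.8% in the STK19 difference, with medians of -0.04 and -0.09. The CSB_KO count was 13 under each replicate left out, and the STK19 count 10 to 13. As a ratio of counts, mitochondrial to nuclear members stood at 2.63 in CSB_KO at 20 h in DMSO, against 3.31 at 0 h, and at 2.21 in WT, against 3.16 at 0 h.

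The ATR inhibitor raised mitochondrial mRNAs at 4 h in CSB_KO. There 12 of 13 rose against DMSO and 0 fell, by 0.52 for MT-CO3 to 0.79 for MT-CO1, beside 2.70% of all genes called higher and 0.278% lower. MT-ND3, at 0.37, did not pass (edgeR adjusted p = 0.178). MT-CO1 had 13980, 15300 and 16190 CPM with ATRi, against 9480, 7941 and 8789 CPM in DMSO, and rose by 0.79 ± 0.10 (adjusted p = 2.84e-08). MT-ND1 had 2404, 2823 and 2998 CPM with ATRi, against 1854, 1611 and 1683 CPM in DMSO. For both genes the groups were separate. The count was 13 without the 5 libraries or without every replicate 1, but 2 without every replicate 2 and 3 without every replicate 3.

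In the other lines no mitochondrial gene was called at 4 h. With edgeR at an unadjusted p under 0.05, 0 were higher and 7 lower in STK19_KO1, 0 higher and 2 lower in STK19_KO2, and 0 higher and 2 lower in WT. DESeq2 called 0 in STK19_KO1, 0 in STK19_KO2 and 1 lower in WT. The background of calls was 0.776% higher and 0.129% lower in STK19_KO1, 0.194% and 0.0259% in STK19_KO2, and 2.03% and 0.627% in WT. Replicate 1 of STK19_KO1 with ATRi, one of the 5 libraries, held 1467 CPM of MT-ND1, against 2757 and 3112 CPM in the other replicates. The difference between CSB_KO and WT in the 4 h inhibitor change, tested after the data were seen, was called for 11 of 13 genes, by 0.65 to 1.06, beside 2.33% of all genes higher. MT-ATP8 at 0.73 and MT-ND3 at 0.55 did not pass. The count was 2 without every replicate 2 and also 2 without every replicate 3. The same difference for the STK19 lines called 0 (edgeR, and 0 at an unadjusted p under 0.05, with DESeq2 also at 0), beside 0.00646% higher and 0% lower.

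At 20 h the inhibitor changed few mitochondrial mRNAs. In CSB_KO 3 rose and 0 fell, in STK19_KO1 0 rose and 2 fell, in STK19_KO2 1 rose and 0 fell, and in WT 0 were called. The background was 14.1% higher and 17.5% lower in CSB_KO, 31.5% and 30.1% in STK19_KO1, 30.5% and 27.7% in STK19_KO2, and 30.2% and 33.7% in WT. The called genes in CSB_KO were MT-ND1 at 0.43, MT-CO1 at 0.41 and MT-ND4L at 0.38, in STK19_KO1 MT-ATP6 at -0.45 and MT-CO3 at -0.33, and in STK19_KO2 MT-ND1 at 0.36. In WT 1 gene was higher and 0 lower at an unadjusted p under 0.05, and DESeq2 called 1 higher. Leaving out the 5 libraries gave 7 in CSB_KO and 4 in STK19_KO1. Leaving out every replicate 2 or 3 gave 2 in CSB_KO and 0 in both STK19 lines, and every replicate 1 gave 6 for CSB_KO, 4 for STK19_KO1 and 3 for STK19_KO2. The inhibitor change did not pass for any mitochondrial gene in its difference from WT (edgeR, 0 at an unadjusted p under 0.05 and 0 with DESeq2, for CSB_KO and for the STK19 lines), beside 24.7% of all genes higher and 26.9% lower for CSB_KO and 20.7% and 20.2% for the STK19 lines.

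With the inhibitor at 20 h the log2 ratio of MT-ND1 to MT-CYB lay between 0.796 and 1.5 with ATRi and between 0.524 and 1.28 in DMSO. Within each line it was higher with ATRi, by 0.14 in CSB_KO, 0.24 in STK19_KO1, 0.14 in STK19_KO2 and 0.18 in WT, and by 0.18 on average (two-sided exact permutation within lines, p = 1.25e-05, adjusted 1.56e-05, 12 against 12 libraries). At 4 h the mean difference was 0.05 (exact p = 0.0714, adjusted 0.0714). The log2 ratio of MT-CO1 to MT-CYB did not follow this pattern. It was 3.53 with ATRi and 3.42 in DMSO in CSB_KO, 3.45 and 3.44 in STK19_KO1, 3.48 and 3.59 in STK19_KO2, and 3.74 and 3.72 in WT (means, n = 3 each), and was not tested. Over the 12 heavy-strand genes, Spearman's rho of the 20 h inhibitor change with distance was -0.098 in CSB_KO, 0.112 in STK19_KO1, 0.147 in STK19_KO2 and -0.056 in WT, so no order along the transcript beyond the MT-ND1 and MT-CYB pair is read from these values.

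Before UV few mitochondrial members were called against WT except in STK19_KO2. More were called in CSB_KO and STK19_KO1 when untreated libraries were fitted alone, as given in the last section. The log2 ratio of MT-ND1 to MT-CYB lay between -0.0229 and 0.0715 in WT. It was lower in the knockouts, at -0.278 to -0.149 in CSB_KO, -0.174 to -0.139 in STK19_KO1 and -0.157 to -0.115 in STK19_KO2. This difference was not tested. The calls were most in STK19_KO2. There 0 rose and 7 fell, with a median of -0.34, against 26.6% of all genes called higher and 20.7% lower. The called genes were MT-ND2 at -0.44, MT-ATP8 at -0.73, MT-ATP6 at -0.66, MT-CO3 at -0.33, MT-ND3 at -0.63, MT-ND4L at -0.35 and MT-ND4 at -0.43. MT-ATP6 had 1569, 1710 and 1846 CPM in STK19_KO2 and 3074, 2607 and 2411 CPM in WT, which do not overlap. In STK19_KO1 MT-ND6 rose by 0.50 (edgeR adjusted p = 0.00238) and MT-ND3 fell by 0.46, beside 29.5% of all genes higher and 19.2% lower. In CSB_KO 0 were called (edgeR, 0 at an unadjusted p under 0.05, and 0 with DESeq2), beside 19.1% higher and 15.7% lower. The STK19_KO2 count was 4 without every replicate 2 and 5 without every replicate 3, and the STK19_KO1 count ran from 1 to 4 over the replicates left out. The STK19_KO1 split of 1 and 1 was 1 and 2 with DESeq2 size factors, 1 and 3 with library totals alone and 1 and 6 with the upper quartile.

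Of the 100 nuclear members 97 passed the filter on low counts. The muscle isoforms COX6A2 and COX7A1 had 16 and 9 counts over all 72 libraries and ATP5MGL 133, and these were not tested. Relative to the other genes of a library, most nuclear members rose by 3 h in every line. In CSB_KO 87 rose and 2 fell, in STK19_KO1 84 rose and 0 fell, in STK19_KO2 69 rose and 0 fell, and in WT 87 rose and 1 fell, beside the shares of all genes given above for this comparison. The median log2 changes of the 97 were 0.47 in CSB_KO, 0.46 in STK19_KO1, 0.28 in STK19_KO2 and 0.60 in WT, and those of all genes tested lay between 0.03 and 0.06. At 4 h in DMSO 85 members rose in CSB_KO, 73 in STK19_KO1, 77 in STK19_KO2 and 86 in WT, while 1 fell in each of CSB_KO, STK19_KO2 and WT and 0 in STK19_KO1, beside the shares of all genes given above. Leaving out every replicate 2 took the STK19_KO2 counts to 40 at 3 h and to 50 at 4 h rising.

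Among complex I subunits, the largest and NADH-oxidising complex, 36 of 37 rose at 3 h in CSB_KO, 35 in STK19_KO1, 27 in STK19_KO2 and 37 in WT, and 0 fell in any line. NDUFS5, a small accessory subunit, changed by 0.48, 0.45, 0.27 and 0.67 in CSB_KO, STK19_KO1, STK19_KO2 and WT, all called. The assembly factors moved less evenly: of 8, 5 rose and 1 fell in CSB_KO, 4 rose in both STK19 lines and 5 rose in WT. In complex II, succinate dehydrogenase, 4 of 4 subunits rose in CSB_KO, 3 in STK19_KO1, 1 in STK19_KO2 and 4 in WT. SDHAF4, which helps to mature the flavoprotein subunit SDHA, had 8.11, 5.52 and 5.05 CPM in WT at 3 h, against 3.56, 3.33 and 2.74 CPM at 0 h. These groups did not overlap, and SDHAF4 rose in all 4 lines by 0.57 in CSB_KO, 0.89 in STK19_KO1, 0.86 in STK19_KO2 and 0.96 ± 0.14 in WT (edgeR adjusted p = 3.6e-08 in WT). Replicate 1 of WT, at 8.11 CPM at 3 h and 3.56 CPM at 0 h, is among the 5 libraries at both times.

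All 9 complex III subunits rose at 3 h in CSB_KO, STK19_KO1 and WT, and 7 of 9 in STK19_KO2. UQCRB, a small accessory subunit, had 284, 155 and 154 CPM in WT at 3 h, against 108, 90.3 and 92.7 CPM at 0 h. Replicate 1, at 284 CPM, is one of the 5 libraries. The CSB_KO values of UQCRB were 145, 134 and 140 CPM, against 94.5, 93.2 and 95.9 CPM at 0 h, with a log2 change of 0.57 ± 0.11. Its difference between CSB_KO and WT, -0.46, was -0.18 without the 5 libraries (adjusted p = 0.141). In complex IV, cytochrome c oxidase, 13 of 15 tested rose in CSB_KO and WT and 12 in each STK19 line. NDUFA4, a complex IV subunit despite its name, changed by 0.60, 0.73, 0.38 and 0.89 in CSB_KO, STK19_KO1, STK19_KO2 and WT. COX6A1 had 241, 240 and 241 CPM in CSB_KO at 3 h, against 170, 172 and 158 CPM at 0 h, and rose by 0.53 ± 0.08 (edgeR adjusted p = 2.78e-08).

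In complex V 17 of 17 tested subunits rose at 3 h in CSB_KO and STK19_KO1, 15 in STK19_KO2 and 16 in WT. ATP5F1B had 1561, 1553 and 1590 CPM in WT at 3 h, against 1042, 1050 and 1092 CPM at 0 h, a log2 change of 0.56 ± 0.04 (edgeR adjusted p = 1.62e-20). Its replicates lay close together and the groups were separate. ATP5ME, a small subunit of the membrane part, changed by 0.57, 0.63, 0.29 and 0.72 in CSB_KO, STK19_KO1, STK19_KO2 and WT. The inhibitor ATP5IF1, which blocks ATP hydrolysis by the synthase, rose in all 4 lines, by 0.52, 0.51, 0.42 and 0.71. COX8C, a testis isoform of a complex IV subunit, had 0 counts at 0 h in CSB_KO and WT and 14 and 19 at 3 h over the 3 libraries. Against a floor of 3 counts over the group that is at least 9.27-fold higher in CSB_KO and at least 4.44-fold in WT. These are bounds from few counts, which depend on the floor and leave out the count error at 3 h. NDUFA4L2 and COX6B2 stayed under 1.2 CPM.

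Tests of the 3 h difference from WT gave few calls for CSB_KO and more for the STK19 lines. For CSB_KO 0 nuclear members were higher and 3 lower (UQCRB, NDUFAF4 and NDUFV2), and 0 were called without the 5 libraries. For the mean of the STK19 lines 3 were higher and 42 lower, beside 10.1% of all genes higher and 17.1% lower. That count fell to 3 higher and 8 lower without every replicate 1 and to 20 lower without every replicate 2, and it was 3 and 37 without the 5 libraries. Scaled by library totals alone it was 4 and 6, and by the upper quartile 4 and 16. NDUFS4, an accessory subunit needed for a stable complex I, differed by -0.53 and NDUFAF2, an assembly factor, by -0.57. At 4 h the STK19 difference had 1 higher and 33 lower and the CSB_KO difference 0 higher and 1 lower (SDHAF4, -0.61), beside 11.9% and 14.7% for STK19 and 5.09% and 11.3% for CSB_KO. The STK19 split was 5 and 2 by library totals alone and 2 and 11 by the upper quartile, 69 lower without the 5 libraries, and 5 lower without every replicate 2 or every replicate 3. The CSB_KO counts at 4 h were 2 higher and 7 lower without the 5 libraries, 1 higher and 6 lower without every replicate 1, and 0 without every replicate 2 or 3.

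**Figure D4:**
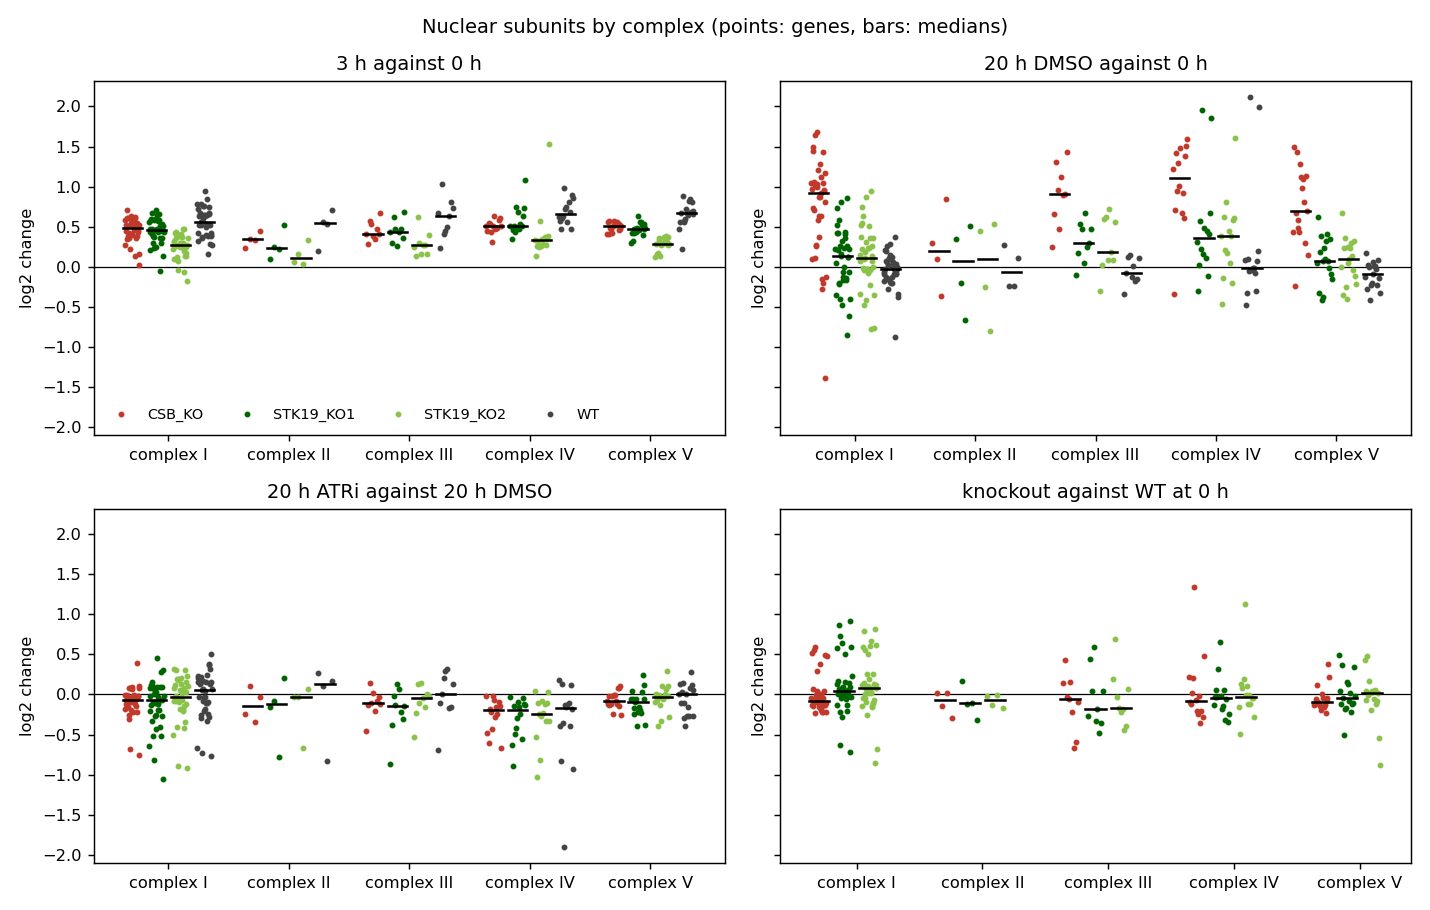
Log2 changes of the nuclear subunits (points) and their medians (bars) by complex and line, for 3 h against 0 h, 20 h DMSO against 0 h, 20 h ATRi against 20 h DMSO, and each knockout against WT at 0 h. COX8C is not drawn, so the complex IV bars are medians of the other 14 tested. At 3 h nearly all points lie above 0, and at 20 h the CSB_KO medians of complexes I, III, IV and V lie above those of the other lines.

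At 20 h in DMSO the nuclear members stayed high in CSB_KO relative to other genes, and had returned near their 0 h level in WT. In CSB_KO 81 rose and 11 fell, in STK19_KO1 47 rose and 20 fell, in STK19_KO2 42 rose and 21 fell, and in WT 12 rose and 25 fell. Beside the shares of all genes given above for this comparison, the rising 83.5% in CSB_KO stood against 38.3% and the rising 12.4% in WT against 30.0%. The falling 25.8% in WT was close to 25.4%, and the falling 20.6% and 21.6% in STK19_KO1 and STK19_KO2 were below 37.0% and 37.8%. Their medians were 0.86 in CSB_KO, 0.21 in STK19_KO1, 0.16 in STK19_KO2 and -0.02 in WT, and those of all genes lay between -0.02 and 0.05. Without every replicate 2 the WT counts were 7 and 15, and scaled by library totals alone they were 18 and 19. By complex, the medians in CSB_KO were 0.92 for complex I, 0.20 for complex II, 0.91 for complex III, 1.22 for complex IV and 0.69 for complex V. In WT the same medians were -0.02, -0.07, -0.07, -0.02 and -0.09.

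NDUFB11, a complex I subunit encoded on the X chromosome (chrX:47142071-47145466, GRCh38), had 346, 367 and 353 CPM in CSB_KO at 20 h in DMSO, against 113, 113 and 106 CPM at 0 h. In WT it had 144, 146 and 143 CPM, against 113, 123 and 121 CPM. It rose by 1.69 ± 0.09 in CSB_KO (edgeR adjusted p = 4.01e-25), 0.81 in STK19_KO1, 0.87 in STK19_KO2 and 0.28 in WT. COX7A2 (chr6:75237675-75250323), the widely expressed isoform of its complex IV subunit, had 207, 209 and 200 CPM in CSB_KO at 20 h in DMSO, against 74.7, 76.7 and 68.5 CPM at 0 h, and rose by 1.49 ± 0.09. In WT COX7A2 had 84.1, 82.9 and 82.9 CPM, against 86, 84.7 and 82.9 CPM, and the change of -0.02 did not pass (adjusted p = 0.869). ATP5F1B (chr12:56638175-56645984) had 2732, 2699 and 2773 CPM in CSB_KO, against 991, 996 and 935 CPM at 0 h, while WT had 1197, 1233 and 1167 CPM, against 1042, 1050 and 1092 CPM. It rose in all 4 lines, by 1.49, 0.62, 0.67 and 0.18 in CSB_KO, STK19_KO1, STK19_KO2 and WT.

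UQCRFS1 (chr19:29205320-29213151), the Rieske iron-sulfur subunit of complex III, had 585, 592 and 578 CPM in CSB_KO at 20 h in DMSO, against 268, 275 and 265 CPM at 0 h. In STK19_KO1 it had 433, 428 and 452 CPM, against 276, 275 and 273 CPM, and in STK19_KO2 445, 439 and 475 CPM, against 269, 271 and 284 CPM. In WT it had 326, 307 and 311 CPM, against 306, 313 and 319 CPM. The 3 knockouts were above their 0 h values without overlap, with log2 changes of 1.12 ± 0.06, 0.67 and 0.72, and WT changed by 0.01 (edgeR adjusted p = 0.914). Its difference from WT was 1.11 in CSB_KO and 0.69 in the STK19 lines. Among the main forms of other isoform pairs, COX4I1 rose by 1.22 in CSB_KO and 0.31 and 0.38 in the STK19 lines, and COX8A by 1.39, 0.41 and 0.59, and neither passed in WT. The rare COX8C had 62 counts in CSB_KO at 20 h in DMSO and 0 at 0 h, or 34.9-fold a floor of 3 counts. That value depends on the floor and leaves out the count error at 20 h. COX8C may have passed the low-count filter through its CSB_KO groups at 20 h, so no test of it is read.

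The 3 genes for the c-ring of ATP synthase, which code for the same mature protein, all rose in CSB_KO and all fell in WT. In the STK19 lines the 3 genes parted. ATP5MC1 changed by 0.48, -0.41, -0.26 and -0.41 in CSB_KO, STK19_KO1, STK19_KO2 and WT, all called. ATP5MC2 changed by 0.59, -0.38, -0.40 and -0.22, all called. ATP5MC3 rose by 0.43 in CSB_KO and fell by 0.20 in WT, and its changes of 0.07 and 0.05 in the STK19 lines did not pass. The subunits of complex II moved unevenly. SDHA, the flavoprotein, rose in all 4 lines by 0.30, 0.35, 0.44 and 0.28. SDHC, a membrane anchor, fell in all 4 by 0.37, 0.66, 0.80 and 0.24. SDHD, the other anchor, rose by 0.85, 0.51 and 0.53 in the knockouts and did not pass in WT at 0.10. SDHB, the iron-sulfur subunit, changed by 0.10 in CSB_KO (edgeR adjusted p = 0.209) and fell by 0.21, 0.26 and 0.24 in the other lines.

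Some members went the other way. NDUFV2 (chr18:9102630-9134345), an iron-sulfur subunit of the NADH-oxidising part of complex I, had 25.4, 26.1 and 25.2 CPM in CSB_KO at 20 h in DMSO, against 67.9, 66.3 and 66.4 CPM at 0 h. It fell by 1.39 ± 0.09 in CSB_KO (edgeR adjusted p = 5.45e-21), 0.61 in STK19_KO1, 0.77 in STK19_KO2 and 0.38 in WT. NDUFAF6, an assembly factor, fell by 1.12, 0.60 and 0.80 in the knockouts, and its change in WT was 0.01 (adjusted p = 0.907). NDUFS4 (chr5:53560633-53683338) had 14.4, 14.6 and 15.3 CPM in WT at 20 h in DMSO, against 30.8, 26 and 25.2 CPM at 0 h, and fell by 0.88. In CSB_KO its change of -0.20 did not pass (adjusted p = 0.0573). NDUFAF2 (chr5:60945177-61154531) had 14.8, 14.1 and 16.8 CPM in STK19_KO1, against 38, 35.2 and 35.1 CPM at 0 h, and fell by 1.24 and 1.22 in the STK19 lines and by 0.65 in WT, while in CSB_KO it had 29.9, 32.1 and 27.5 CPM, against 29.2, 29.3 and 30.4 CPM.

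The 20 h change differed from that of WT for most nuclear members in CSB_KO, with 81 higher and 5 lower and a median difference of 0.89, beside 30.9% of all genes higher and 36.3% lower. COX7A2 at 1.51 ± 0.13, ATP5F1E at 1.44 ± 0.16 and NDUFB11 at 1.41 ± 0.12 differed most, and NDUFAF6 at -1.13 and NDUFV2 at -1.01 were lowest. ATP5F1E codes for the epsilon subunit of the ATP synthase stalk. In the STK19 lines 38 were higher and 8 lower, with a median of 0.18, beside 22.8% higher and 32.7% lower. The STK19 count was 56 higher and 11 lower without the 5 libraries and 26 and 7 without every replicate 2. Scaled by library totals alone, the CSB_KO split was 68 and 13 and the STK19 split 27 and 16. NDUFAF4, a complex I assembly factor, differed from WT by 0.76 in the STK19 lines and NDUFA5, a subunit of the arm that reaches into the matrix, by 0.61.

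Gene length was recorded beside these changes. The 97 tested members spanned a median of 12.65 kb in the genome (1.125 to 220.9 kb), against 32.69 kb for all genes tested. In CSB_KO at 20 h, the 17 members under 5 kb had a median change of 0.99 (all genes of that span 0.82), the 48 members of 5 to 20 kb 0.96 (0.58), the 24 members of 20 to 60 kb 0.61 (0.06) and the 8 members of 60 kb or more 0.05 (-0.92). In WT at 3 h the same bins had medians of 0.60, 0.64, 0.55 and 0.47 for members and 0.43, 0.33, 0.05 and -0.34 for all genes. The part of span in the change was not tested.

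The inhibitor at 4 h changed almost no nuclear member: the read-through transcript ATP5MF-PTCD1 rose by 0.55 in STK19_KO1 (edgeR adjusted p = 0.0405), and 0 were called in the other lines with edgeR. At an unadjusted p under 0.05, 0 were higher and 12 lower in CSB_KO, 0 and 3 in STK19_KO2 and 0 and 17 in WT, and DESeq2 called 1 lower in CSB_KO and 0 in the other 2. Without the 5 libraries 10 fell in CSB_KO and 36 in WT, and without every replicate 1 6 fell in CSB_KO and 4 in WT. The difference of this change from WT called 0 nuclear members (edgeR, at an unadjusted p under 0.05 0 for CSB_KO and 1 higher and 1 lower for STK19, and 0 with DESeq2).

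At 20 h with the inhibitor, 4 nuclear members described below were lower in every line, while the members as a whole were called lower at shares at or near those of all genes, or below them. In CSB_KO 2 rose and 17 fell, and in STK19_KO1 14 rose and 31 fell. In STK19_KO2 14 rose and 21 fell, and in WT 24 rose and 21 fell. The rising shares lay below those of all genes, which were 14.1%, 31.5%, 30.5% and 30.2% in the same order. The lower calls were 17.5% of the 97 tested members in CSB_KO, 32% in STK19_KO1, 21.6% in STK19_KO2 and 21.6% in WT, against 17.5%, 30.1%, 27.7% and 33.7% of all genes in the same lines. In CSB_KO the counts were 7 and 32 without the 5 libraries and 2 and 7 without every replicate 2, in STK19_KO1 9 and 18 without every replicate 3, and in WT 36 and 33 without the 5 libraries. The split between higher and lower also moved with the scaling: by library totals alone it was 16 and 39 in WT, 4 and 14 in CSB_KO and 10 and 31 in STK19_KO2, by the upper quartile 16 and 38 in WT and 10 and 30 in STK19_KO2, and by DESeq2's test 18 and 24 in STK19_KO1. In complex IV 5 of 15 fell and 0 rose in CSB_KO, 6 fell and 0 rose in each STK19 line, and 5 fell and 1 rose in WT.

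NDUFV2 had 16.4, 13.9 and 15.5 CPM in CSB_KO with ATRi, against 25.4, 26.1 and 25.2 CPM in DMSO, and 33.2, 32.9 and 31.2 CPM in WT, against 56, 56.1 and 54.1 CPM. It fell in all 4 lines, by 0.75, 1.05, 0.91 and 0.77 in CSB_KO, STK19_KO1, STK19_KO2 and WT. COX5B (chr2:97646062-97648383), a zinc-binding subunit of complex IV, had 37.6, 36.9 and 36.3 CPM in STK19_KO2 with ATRi, against 74.7, 73.2 and 78 CPM in DMSO. Its falls were 0.61, 0.89, 1.03 and 0.83 (edgeR adjusted p = 8.44e-19 in STK19_KO2). NDUFAB1 (chr16:23581014-23596316), the mitochondrial acyl carrier protein that is also a complex I subunit, had 39, 36.6 and 38 CPM in WT with ATRi, against 65.1, 60.1 and 62.8 CPM in DMSO, and fell by 0.69, 0.81, 0.90 and 0.73. SDHC (chr1:161314381-161363206) had 58.3, 56 and 56.7 CPM in WT with ATRi, against 104, 96.9 and 103 CPM in DMSO, and fell by 0.34, 0.78, 0.67 and 0.83. For each of these genes the ATRi and DMSO groups were separate in all 4 lines, and none of the 4 passed at 4 h in any line. The 4 were picked for the largest mean falls in this comparison, so their separation follows in part from the choice.

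**Figure D5:**
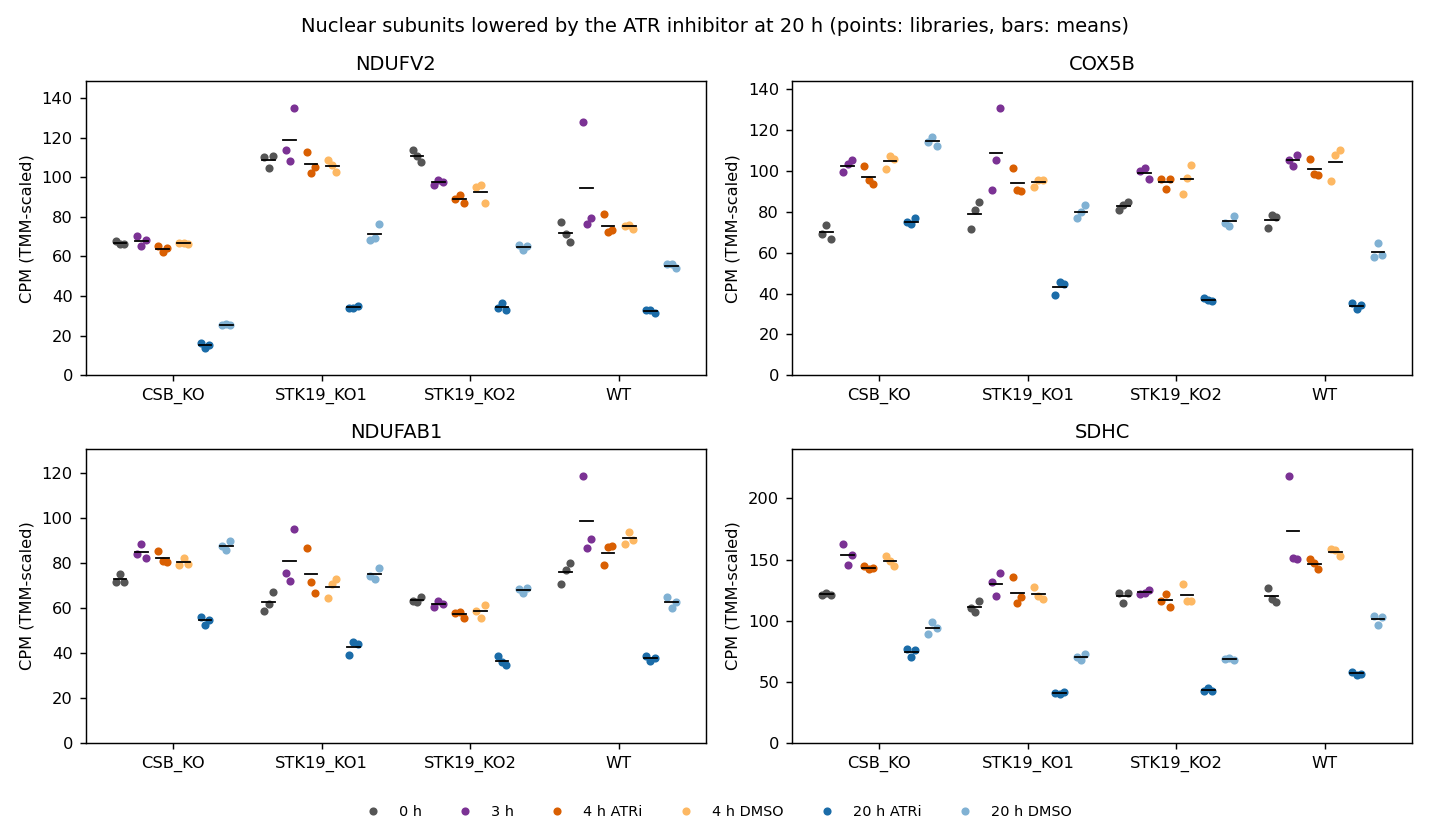
CPM of NDUFV2, COX5B, NDUFAB1 and SDHC in each library by line and condition, with points for libraries and bars for means. In each line the 3 libraries at 20 h with ATRi lie below the 3 at 20 h in DMSO, with COX5B in STK19_KO2 at 36.3 to 37.6 CPM with ATRi and 73.2 to 78 CPM in DMSO.

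Of the 8 complex I assembly factors, 1 rose with the inhibitor at 20 h in CSB_KO, 5 in STK19_KO1, 4 in STK19_KO2 and 5 in WT, and 1 fell, in STK19_KO2. Over all genes 14.1%, 31.5%, 30.5% and 30.2% were called higher in the same order of lines, and 27.7% lower in STK19_KO2. With 8 genes, nothing particular to this list is read from its counts. NDUFAF5 (chr20:13785007-13821580), which hydroxylates the complex I subunit NDUFS7, had 27.8, 23.5 and 24.9 CPM in WT with ATRi, against 11.9, 11.9 and 11.3 CPM in DMSO, and rose by 1.12 ± 0.09 (edgeR adjusted p = 8.4e-16). In CSB_KO NDUFAF5 had 8.43, 7.01 and 7.49 CPM with ATRi, against 7.33, 6.09 and 6.8 CPM in DMSO, which overlap, and the difference between CSB_KO and WT was -0.94 ± 0.14. NDUFAF2 had 31.3, 31.4 and 35.1 CPM in WT with ATRi, against 20.6, 20.2 and 24 CPM in DMSO, and rose by 0.63, 0.79 and 0.59 in STK19_KO1, STK19_KO2 and WT, with 0.21 in CSB_KO (adjusted p = 0.17). NDUFAF7, a methyltransferase for a complex I subunit, rose by 0.60, 0.47 and 0.58 in the same 3 lines, with -0.02 in CSB_KO (adjusted p = 0.869). SDHAF3, which helps the maturation of SDHB, rose by 0.39, 0.53 and 0.39, with 0.13 in CSB_KO (adjusted p = 0.433).

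The test of the difference from WT in this response gave 5 higher and 23 lower nuclear members for CSB_KO and 2 higher and 22 lower for the STK19 lines. The lower calls were 23.7% and 22.7% of the 97 tested members, against 26.9% and 20.2% of all genes, which is near the background. The 5 and 2 higher calls were below the background, which was 24.7% and 20.7% of all genes. SDHAF1, an assembly factor for SDHB, differed by -0.79 in CSB_KO and -0.56 in the STK19 lines: in WT it had 46.8, 41 and 45.1 CPM with ATRi, against 29, 33.3 and 29.8 CPM in DMSO. NDUFAF7 differed by -0.60 in CSB_KO. SDHC differed by 0.49 and NDUFA1, a small membrane-arm subunit, by 0.49 in CSB_KO. NDUFA1 fell by 0.67 in WT, and its change of -0.18 in CSB_KO did not pass (edgeR adjusted p = 0.195). The counts depended on the libraries and the scaling. Without the 5 libraries they were 13 and 36 for CSB_KO and 7 and 38 for STK19, without every replicate 2 5 and 12 for CSB_KO and 0 and 14 for STK19, and without every replicate 3 0 and 9 for STK19. Scaled by library totals alone the splits were 23 and 9 for CSB_KO and 7 and 11 for STK19, and by the upper quartile 20 and 9 and 4 and 10, so the direction of the CSB_KO split turned.

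Of the 97 nuclear members tested, 13 were higher and 17 lower at 0 h in CSB_KO than in WT. The counts were 18 and 16 for STK19_KO1, then 18 and 15 for STK19_KO2. Over all genes, CSB_KO had 19.1% called higher and 15.7% lower. For STK19_KO1 these shares were 29.5% and 19.2%, against 26.6% and 20.7% for STK19_KO2. The higher counts lay below the shares of all genes in each knockout, and the lower counts were near or below them. Nothing particular to the members is read from these counts. The 4 members with the largest rise over the knockouts, NDUFS7, NDUFA3, NDUFA7 and NDUFA11, are complex I subunit genes. NDUFS7, which carries an iron-sulfur cluster, had 71.1, 72 and 67.5 CPM in CSB_KO, 91, 97.5 and 94.3 CPM in STK19_KO1, 86.9, 90.7 and 85.7 CPM in STK19_KO2, and 39.2, 54.2 and 56.1 CPM in WT. NDUFA3 rose by 0.56, 0.87 and 0.79, NDUFA7 by 0.59, 0.72 and 0.55 and NDUFA11 by 0.52, 0.58 and 0.59, in the order CSB_KO, STK19_KO1, STK19_KO2. The 3 comparisons share the WT libraries, whose replicate 1 was the lowest for NDUFS7 and is one of the 5. NDUFS6, an accessory subunit, averaged 138 CPM in CSB_KO, 92.5 CPM in STK19_KO1 and 84.1 CPM in STK19_KO2, against 152 CPM in WT, and fell by 0.71 and 0.85 in the STK19 lines. UQCRH averaged 170, 194 and 199 CPM in CSB_KO, STK19_KO1 and STK19_KO2 and 271 CPM in WT. UQCRH and UQCRHL are near-identical copies, so the split of reads between them is uncertain. After leaving out the 5 libraries, the lower count was 32 in CSB_KO and 26 in STK19_KO1. In CSB_KO 9 were higher and 7 lower without every replicate 2, and 11 higher and 3 lower without every replicate 3. By library totals alone the split was 16 higher and 29 lower in STK19_KO1, by the upper quartile 15 and 31, and in STK19_KO2 15 and 22.

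Neighbouring gene groups were read from the same fit. At 3 h 77 of 79 cytosolic ribosomal protein genes rose in CSB_KO and 78 in WT, with medians of 0.56 and 0.72, and at 20 h in DMSO their medians were 1.18 in CSB_KO, 0.39 in STK19_KO1, 0.36 in STK19_KO2 and 0.00 in WT. Mitochondrial ribosomal protein genes, 78 in all, changed less: 53 rose and 3 fell at 3 h in CSB_KO and 69 rose and 1 fell in WT, with 20 h medians of 0.29, 0.06, 0.06 and -0.10. Of 39 other chain and assembly genes that the names above leave out, 30 rose and 3 fell at 3 h in CSB_KO and 32 rose and 4 fell in WT. Of 12 tricarboxylic acid cycle genes, 10 rose and 1 fell in CSB_KO and 11 rose and 0 fell in WT. Of 28 genes for mitochondrial transcription and RNA, 10 rose and 6 fell in CSB_KO and 12 rose and 5 fell in WT, and of 11 for mitochondrial DNA maintenance 4 rose and 2 fell in WT. The lists were chosen with results of these data known, and nothing particular to a list is read from its counts.

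Known regulators of these genes were read in the same way. Of 10, 1 rose and 7 fell at 3 h in CSB_KO, 1 and 8 in STK19_KO1, 1 and 6 in STK19_KO2, and 1 and 6 in WT, beside 28.5% to 30.6% of all genes called lower, and nothing particular to the list is read from these counts. NRF1, a transcription factor of many respiratory chain genes, fell by 2.33 in CSB_KO (edgeR adjusted p = 1.2e-34), 1.77 in STK19_KO1, 1.90 in STK19_KO2 and 2.16 in WT. At 20 h in DMSO NRF1 was lower by 1.66, 0.63, 0.81 and 0.39. The coactivator PPARGC1B fell by 1.89, 1.89, 1.81 and 1.93 at 3 h. TFAM, which packages mitochondrial DNA and starts its transcription, rose by 0.33, 0.34, 0.30 and 0.52 at 3 h and by 1.01, 0.59 and 0.75 at 20 h in the knockouts, with 0.12 in WT (adjusted p = 0.24). LRPPRC, which stabilises mitochondrial mRNAs, fell by 0.77, 1.17, 1.13 and 0.27 at 20 h. POLRMT rose by 0.42 in CSB_KO at 20 h (adjusted p = 0.00114), and its changes of 0.25, 0.22 and -0.03 in the other lines did not pass. These 5 genes were picked after their values were seen, and whether their levels bear on the members was not tested.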

How the data were processed

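Polyadenylated RNA of 72 libraries (4 lines, 6 conditions, 3 replicates) was analysed from 1 table of counts per gene that the authors deposited, whole numbers that are not normalized. Per the submitters' processing notes, reads were handled with STAR and RSEM on GRCh38 and coverage with deepTools 3.5.1; no source used here gives the strand setting of the counting. Per the labels' protocols, RNA came from a Qiagen RNeasy kit and libraries from a directional NEBNext Ultra II poly(A) kit. Groups came from the labels. Depth was 36.5 to 212.9 M counts a library (M, 10 to the power 6).

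Counts were tested in R 4.3.3 with edgeR 4.0.16 (limma 3.58.1): filterByExpr (minimum count 10, minimum total 15) kept 15470 genes and removed 3854, TMM factors ran from 0.857 to 1.13, and 1 quasi-likelihood fit (glmQLFit, glmQLFTest) held all 24 groups. Calls were made at 0.05 after Benjamini-Hochberg adjustment over every tested gene. CPM values are TMM-scaled, and levels per kb divide CPM by the summed exon length in GENCODE 29, which lists 19151 of the table's gene IDs. Log2 changes put the first-named group over the second. Differences between lines are interaction contrasts of the same fit, with the 2 STK19 clones averaged. The code was tested on simulated data. DESeq2 1.42.0, other scalings, no filter, a fit of each line alone, a replicate block, each replicate number left out (every library so numbered) and the 5 libraries left out were alternatives. Promoters came from a RefSeq table, and figures from matplotlib 3.10.9. Single samples were compared within lines by exact permutation.

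Replicate numbers, which no label ties to a shared culture or day, paired the samples by correlation (over 0.1 for all 3 pairs) in WT at 3 h and at 4 h in DMSO against 0 h.

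Members and gene lists were chosen with earlier results of these data known. Genes named are all 13 mitochondrial members; for each kind of comparison, the 4 largest mean changes in each direction over the lines among members called with 1 sign in 2 or more lines; the 3 largest each way per difference between lines; the highest level per length in each complex; isoform pairs, ATP5IF1, SDHA to SDHD, and ERCC6 and STK19. ATP5ME, ATP5MF-PTCD1 and the 5 regulators were named after their values were seen. FASTKD4 and COX4I2 were not analysed here.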

Additional observations from a re-analysis of the deposited data

Results flagged for a closer look

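Each result below was marked because the change in a knockout differed from the change in WT in a test of the difference itself (edgeR quasi-likelihood test, adjusted p under 0.05), with log2 differences as knockout minus WT.

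For the change from 0 h to 3 h, CSB_KO differed from WT in 6 mitochondrial members and 3 nuclear members, UQCRB at -0.46, NDUFAF4 at -0.43 and NDUFV2 at -0.37. None of these 3 passed without the 5 libraries, at -0.18, -0.24 and -0.14. The STK19 lines differed in 1 mitochondrial and 45 nuclear members, with SDHAF1 at 0.45 and SDHAF2 at 0.39 above WT, and NDUFAF2 at -0.57, UQCRHL at -0.55 and NDUFS4 at -0.53 below it. UQCRHL was at -0.35 without the 5 libraries (adjusted p = 0.0902). Of all genes, 1.48% were higher and 8.3% lower in this difference for CSB_KO, and 10.1% and 17.1% for the STK19 lines.

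For 4 h in DMSO against 0 h, CSB_KO differed in 13 mitochondrial members and 1 nuclear member, SDHAF4 at -0.61. The STK19 lines differed in 2 mitochondrial and 34 nuclear members, with SDHAF2 at 0.36, COX7B at -0.36, NDUFA1 at -0.35 and ATP5MF at -0.35. Of all genes, 5.09% were higher and 11.3% lower in this difference for CSB_KO, and 11.9% and 14.7% for the STK19 lines. For ATRi against DMSO at 4 h, CSB_KO differed in 11 mitochondrial members, beside 2.33% of all genes higher and 0.873% lower.

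For 20 h in DMSO against 0 h, CSB_KO differed in 13 mitochondrial and 86 nuclear members, with COX7A2 at 1.51, ATP5F1E at 1.44 and NDUFB11 at 1.41, and with NDUFAF6 at -1.13, NDUFV2 at -1.01 and NDUFAF5 at -0.60. The STK19 lines differed in 13 mitochondrial and 46 nuclear members, with NDUFAF4 at 0.76, UQCRFS1 at 0.69 and NDUFA5 at 0.61, and with SDHAF3 at -0.84, NDUFAF6 at -0.71 and NDUFAF2 at -0.58. NDUFAF2 went the other way in CSB_KO, at 0.66. Of all genes, 30.9% were higher and 36.3% lower for CSB_KO, and 22.8% and 32.7% for the STK19 lines.

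For ATRi against DMSO at 20 h, CSB_KO differed in 28 nuclear members, with NDUFA1 at 0.49, SDHC at 0.49 and NDUFB4 at 0.27, and with NDUFAF5 at -0.94, SDHAF1 at -0.79 and NDUFAF7 at -0.60. The STK19 lines differed in 24 nuclear members, with NDUFB5 at 0.36, ATP5MC1 at 0.24, NDUFAF5 at -0.71, SDHAF1 at -0.56 and NDUFAF1 at -0.50.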

How the results depend on the processing

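Counts of called members are given for mitochondrial and nuclear members in the order CSB_KO, STK19_KO1, STK19_KO2 and WT unless named. Scaling without the mitochondrial genes left every count within 1.5 times, and the 13 mitochondrial calls of CSB_KO against WT at 20 h stood in every setting that compares lines. The only change of direction among called values was MT-ND4L in CSB_KO at 20 h in DMSO against 0 h, at -0.06 (-0.0602) with library totals alone. The median of all genes moved by -0.37 to 0.16 with library totals alone and by -0.11 to 0.16 with the upper quartile, and by under 0.1 in the other scalings. Causes were not tested. Depth did not limit members above 1 CPM, but COX8C, NDUFA4L2 and COX6B2 rest on few counts.

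Without the 5 libraries, counts that moved by over 1.5 times were, for mitochondrial members, 5 in CSB_KO and 2 in STK19_KO1 at 3 h, 8 in CSB_KO at 20 h, 1 in WT for ATRi at 4 h, and 7, 4 and 2 in CSB_KO, STK19_KO1 and WT for ATRi at 20 h. In differences from WT they were 0 for STK19 at 3 h, 7 for STK19 at 4 h and 1 for CSB_KO in the 20 h ATRi change. For nuclear members they were 10 in CSB_KO and 36 in WT for ATRi at 4 h, 39 in CSB_KO and 69 in WT for ATRi at 20 h, 47 for CSB_KO at 0 h, and in differences 0 for CSB_KO at 3 h, 9 and 70 for CSB_KO and STK19 at 4 h, 1 for CSB_KO in the 4 h ATRi change, and 49 and 45 in the 20 h ATRi change.

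Fitting each line alone gave mitochondrial counts of 7, 2 and 8 in the knockouts at 3 h, 10 in STK19_KO2 at 4 h, 9 in CSB_KO at 20 h, 2 in STK19_KO2 for ATRi at 4 h, 8, 5 and 5 in the knockouts for ATRi at 20 h, and, with untreated libraries alone, 3 and 10 for CSB_KO and STK19_KO1 at 0 h. Nuclear counts were 7 and 0 in CSB_KO and STK19_KO1 for ATRi at 4 h and 38 and 53 in CSB_KO and STK19_KO2 at 20 h.

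Library totals alone gave mitochondrial counts of 6 and 2 in CSB_KO and STK19_KO1 at 3 h, 6 in WT at 4 h, 5, 5, 0 and 1 for ATRi at 20 h, 4 for STK19_KO1 at 0 h, and in differences 2 and 0 for CSB_KO and STK19 at 3 h, 0 for STK19 at 4 h and 4 for CSB_KO in the 20 h ATRi change. Nuclear differences were 0 and 10 at 3 h and 7 for STK19 at 4 h. The upper quartile gave mitochondrial counts of 8 in CSB_KO at 20 h, 5, 0 and 1 in STK19_KO1, STK19_KO2 and WT for ATRi at 20 h, 7 for STK19_KO1 at 0 h, and differences of 3 and 0 at 3 h and 3 for CSB_KO in the 20 h ATRi change. Nuclear counts were 0 for STK19_KO1 with ATRi at 4 h and differences of 0 and 20 at 3 h, 13 for STK19 at 4 h and 14 for STK19 in the 20 h ATRi change.

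DESeq2 size factors and the DESeq2 test each gave mitochondrial counts of 1 in CSB_KO at 3 h, 1 in WT for ATRi at 20 h and 2 in the STK19 difference at 3 h, and the DESeq2 test also 1 in WT and 1 nuclear member in CSB_KO for ATRi at 4 h. Without the filter the mitochondrial counts were 1 in CSB_KO at 3 h, and 4 and 0 in STK19_KO1 and STK19_KO2 for ATRi at 20 h, and 5 nuclear members differed in CSB_KO at 3 h. Same-numbered samples went together, with every pair's correlation over 0.1, in 2 of 23 comparisons, WT at 3 h (0.329 to 0.59) and WT at 4 h in DMSO (0.161 to 0.516), and in the other 21 they did not (lowest -0.075). In those 2 the replicate block gave 10 and 11 mitochondrial and 89 and 88 nuclear calls, within 1.5 times. With the replicate block 1 mitochondrial gene was called in WT for ATRi at 20 h and 2 in the STK19 difference at 3 h, and no other count moved by over 1.5 times.

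Leaving out each replicate number in turn gave these ranges for mitochondrial members. At 3 h they were 0 to 5, 2 to 5, 3 to 4 and 8 to 11, at 4 h 5 to 11, 2 to 4, 4 to 7 and 6 to 12, and at 20 h 3 to 8, 3 to 7, 3 to 5 and 10 to 12. For ATRi at 4 h they were 2 to 13 in CSB_KO and 0 to 1 in WT, and at 20 h 2 to 6, 0 to 4, 0 to 3 and 0 to 2. For the knockouts at 0 h they were 0 to 1, 1 to 4 and 4 to 7. Differences for CSB_KO and STK19 were 0 to 10 and 0 to 5 at 3 h, 6 to 13 and 0 to 11 at 4 h and 13 to 13 and 10 to 13 at 20 h, and for CSB_KO 2 to 13 and 0 to 1 in the 4 h and 20 h ATRi changes. For nuclear members the ranges were 83 to 88, 72 to 87, 40 to 75 and 87 to 90 at 3 h, 83 to 85, 56 to 76, 51 to 77 and 84 to 88 at 4 h, and 87 to 93, 57 to 68, 54 to 68 and 22 to 39 at 20 h. For ATRi at 4 h they were 0 to 6 in CSB_KO, 0 to 0 in STK19_KO1 and 0 to 4 in WT, and at 20 h 9 to 24, 27 to 46, 25 to 44 and 37 to 55. For the knockouts at 0 h they were 14 to 34, 24 to 40 and 24 to 35. Nuclear differences for CSB_KO and STK19 were 0 to 2 and 11 to 44 at 3 h, 0 to 7 and 5 to 56 at 4 h, 83 to 85 and 33 to 53 at 20 h and 17 to 38 and 9 to 20 in the 20 h ATRi change, and 0 to 1 for CSB_KO in the 4 h ATRi change.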
